A study of Mus musculus with 4 samples.

Results

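Receptors for the Fc part of immunoglobulin G and the signalling chain they share were described in the CD45+ cells of mouse MC38 colon carcinomas, with and without an agonist antibody against CD40. The genes are Fcgr1, Fcgr2b, Fcgr3, Fcgr4 and Fcer1g. They were chosen by name, and all 5 were among the 22631 genes measured. MC38 cells had grown for 7 days in the flank of mice that carry an IL-12p40-IRES-EYFP reporter, which both the untreated and the treated animals shared. Mice then received 5 mg/kg of agonist anti-CD40 by intraperitoneal injection or no treatment, and tumours were taken 2 days later. Live CD45+ cells were sorted, and inDrops was used to count their RNA. In this method each cell is caught in a droplet and each RNA molecule gets a molecular tag (UMI), so that copies made by PCR are counted once. The age of the mice is not given in the sources used here.

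Mouse macrophages, monocytes and neutrophils bind antibody-coated targets through Fc gamma receptors. The high-affinity receptor encoded by Fcgr1 and the receptors encoded by Fcgr3 and Fcgr4 are activating: they signal through the Fc receptor gamma chain encoded by Fcer1g, whose tyrosine motif recruits the kinase Syk. The receptor encoded by Fcgr2b carries an inhibitory motif in its own tail and recruits the phosphatase encoded by Inpp5d, so the balance of activating and inhibitory receptors sets the threshold of a cell for immune complexes. NK cells of mice use the Fcgr3 receptor to kill antibody-coated cells.

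The data held 4440 cells with 3961141 UMIs. They came from 1 untreated tumour (1399 cells, 707889 UMIs, median 433 UMIs per cell) and 2 treated tumours (1226 cells, 1391113 UMIs, median 979, and 1815 cells, 1862139 UMIs, median 865). Each tumour was spread over 4 libraries, whose medians ran from 398.5 to 1168.5 UMIs per cell. Pools 1 and 2 held the untreated tumour and treated tumour 1 together, and pools 3 and 4 held treated tumour 2 alone. No cell barcode was shared between libraries (0 shared). The deposited annotation names 7 cell types, of which 1 class joins monocytes, macrophages and dendritic cells (the myeloid class below), and splits neutrophils into 6 subsets. The labels were set against marker genes. The 7 macrophage markers summed to 4656 to 19592 CPM in the myeloid class, 32.3 to 256 in neutrophils, 46.2 to 2638 in T cells and 0 to 1673 in NK cells. The 6 neutrophil markers summed to 35751 to 100626 CPM in neutrophils and 261 to 2192 in the myeloid class. So both sums were highest under their own label, but markers of other types were found as well. Levels are given as CPM: the UMIs of a gene divided by all UMIs of the cells of a type in 1 tumour, times 1000000. This scale is not corrected for gene length, so levels are compared between samples and not between genes.

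Of the genes, 4 lie close together on chromosome 1 and Fcgr1 lies on chromosome 3. In GRCm38 with the GENCODE M21 annotation, Fcgr2b spans chr1:170958617-170976547 (minus strand), Fcgr4 chr1:171018920-171029761 (plus strand), Fcgr3 chr1:171051174-171064935 (minus strand) and Fcer1g chr1:171229572-171234365 (minus strand). Fcgr1 spans chr3:96282909-96293969 (minus strand). Exons of Fcgr2b overlap the antisense gene Gm38204, and whether strand was used in counting is not given in the sources used here, so reads of these genes cannot be told apart. Fcgr2b and Fcgr3 are close copies in part: 6.66% of the 40-base words in the last 600 bases of Fcgr2b transcripts also occur in Fcgr3 transcripts, and 5.34% over whole transcripts. For Fcgr3, 0% of the words in the last 600 bases and 12.05% over whole transcripts also occur in Fcgr2b. Counts of this pair are therefore uncertain, and no other pair of the 5 genes shared such a word.

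The stretches before the start of Fcgr1, Fcgr4 and Fcer1g are shown because these genes had unlike patterns across cell types: Fcgr1 almost only in the myeloid class, Fcgr4 in that class and in neutrophils, and Fcer1g in NK cells as well. They are the 250 bases upstream of the RefSeq start (GRCm38.p6), printed 5′ to 3′ on the strand of the gene. Capitals mark matches to TTCNNNGAA, a form of the gamma-activated sequence bound by STAT factors, and to GAGGAA on either strand, a core bound by PU.1-type factors, which reads TTCCTC where the match is on the opposite strand. They lie at chr3:96293970-96294219 (minus strand), chr1:171018676-171018925 (plus strand) and chr1:171234350-171234599 (minus strand).
Fcgr1: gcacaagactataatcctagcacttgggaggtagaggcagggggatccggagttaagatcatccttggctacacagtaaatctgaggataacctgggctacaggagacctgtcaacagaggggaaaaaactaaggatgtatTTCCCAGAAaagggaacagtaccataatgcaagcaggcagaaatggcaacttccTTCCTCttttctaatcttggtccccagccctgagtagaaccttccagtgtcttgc
Fcgr4: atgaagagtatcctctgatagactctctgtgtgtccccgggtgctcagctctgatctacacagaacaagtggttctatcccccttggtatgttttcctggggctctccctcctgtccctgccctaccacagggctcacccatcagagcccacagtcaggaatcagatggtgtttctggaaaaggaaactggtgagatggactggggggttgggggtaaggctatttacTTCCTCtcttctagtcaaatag
Fcer1g: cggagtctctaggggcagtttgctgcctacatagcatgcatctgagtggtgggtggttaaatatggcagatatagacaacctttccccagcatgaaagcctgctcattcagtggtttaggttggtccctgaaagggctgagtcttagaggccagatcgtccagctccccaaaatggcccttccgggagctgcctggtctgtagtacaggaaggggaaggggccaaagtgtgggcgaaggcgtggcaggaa
The Fcgr1 stretch held TTCNNNGAA 109 bases and GAGGAA 55 bases before the start. The Fcgr4 stretch held GAGGAA 22 bases before the start, and the upstream stretch of Fcgr3 held GAGGAA too. Those of Fcgr2b and Fcer1g held neither motif. Over 32851 promoters of the same length, 7.02% held TTCNNNGAA and 23.3% held GAGGAA, and the motifs do not overlap each other in these stretches. A match describes letters in this window and shows no binding.

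The receptor genes were genes of myeloid cells in these tumours. The myeloid class and neutrophils together held 99.0% of the 1148 UMIs of Fcgr1, 99.1% of the 2288 of Fcgr2b, 99.2% of the 3835 of Fcgr3, 99.3% of the 1122 of Fcgr4 and 94.8% of the 8710 of Fcer1g. The remainder of Fcer1g was mostly in NK cells.

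**Figure D1:**
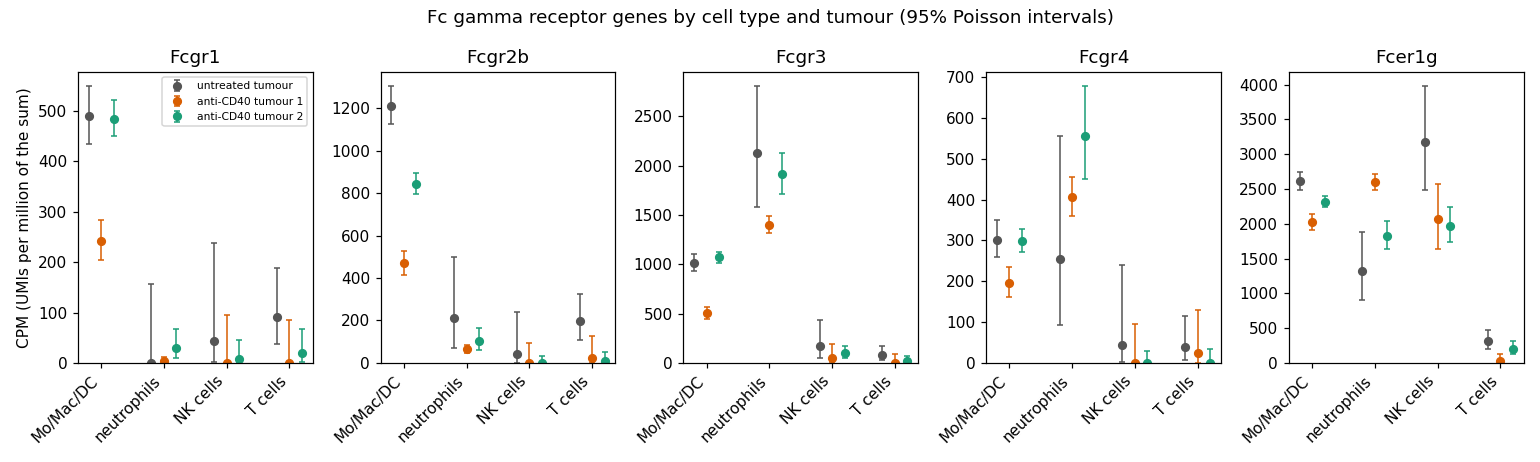
Levels of the 5 genes (vertical axis, CPM) in monocytes, macrophages and dendritic cells (Mo/Mac/DC), neutrophils, NK cells and T cells, with 1 point for each tumour and 95% Poisson intervals that cover counting error only. Fcgr1 and Fcgr2b are highest in the myeloid class, Fcgr3 and Fcgr4 are present in that class and in neutrophils, and Fcer1g is also present in NK cells.

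Fcgr1, the high-affinity activating receptor, was found in the myeloid class at 490 CPM in the untreated tumour, 242 in treated tumour 1 and 485 in treated tumour 2. Treated tumour 1 was low and treated tumour 2 was like the untreated tumour: their levels were 0.494 (95% conditional binomial interval 0.401 to 0.606) and 0.991 (0.862 to 1.14) of the untreated level. In neutrophils Fcgr1 was close to absent, with 0 UMIs in the 49 untreated cells, 3 in the 700 cells of treated tumour 1 and 5 in the 215 cells of treated tumour 2. The 0 of 49 cells allows a share of up to 7.25% of cells with a UMI (upper end of the 95% Clopper-Pearson interval). The gene did not pass the filter on low counts in neutrophils and was not tested there.

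Fcgr3, the low-affinity activating receptor that neutrophils, macrophages and NK cells share, stood at 1012, 502 and 1068 CPM in the myeloid class (untreated, treated 1, treated 2) and at 2131, 1397 and 1912 in neutrophils. In all 3 tumours neutrophils had the higher level, and in both cell types treated tumour 1 had the lowest. Its level in treated tumour 1 was 0.496 (0.430 to 0.571) of the untreated level in the myeloid class and 0.656 (0.494 to 0.890) in neutrophils. For treated tumour 2 these ratios were 1.06 (0.958 to 1.16) and 0.897 (0.665 to 1.23), and both intervals include 1. The untreated neutrophil value rests on 50 UMIs.

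Fcgr4, an activating receptor found on monocytes, macrophages and neutrophils of mice, stood at 302, 196 and 298 CPM in the myeloid class and at 256, 405 and 556 in neutrophils. The order of the cell types differed between tumours: neutrophils lay above the myeloid class in both treated tumours, while in the untreated tumour the neutrophil value rests on 6 UMIs (95% Poisson interval 93.8 to 556) and could not be told from the myeloid one.

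Fcgr2b, the inhibitory receptor, stood at 1212, 468 and 845 CPM in the myeloid class. Both treated tumours lay below the untreated tumour, at 0.386 (0.335 to 0.445) and 0.697 (0.634 to 0.766) of its level, and it was the member with the lowest ratio in each of them. In neutrophils the level was 213, 63.1 and 104. The untreated neutrophil value rests on 5 UMIs, of which 4 came from 1 cell of the subset N4, and all 5 were in 1 library, so it says little about untreated neutrophils.

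Fcer1g, the shared signalling chain, stood at 2613, 2021 and 2315 CPM in the myeloid class and at 1321, 2596 and 1831 in neutrophils. The tumours were ordered in opposite ways in the 2 cell types: the untreated tumour was highest in the myeloid class and lowest in neutrophils. Against the untreated tumour, the neutrophil level was 1.96 times as high (1.38 to 2.90) in treated tumour 1 and 1.39 times (0.957 to 2.07) in treated tumour 2, and the second interval includes 1. In NK cells Fcer1g stood at 3174, 2067 and 1972 CPM, on 74, 80 and 241 UMIs. The untreated NK level was the highest of the 3, and both treated levels were lower beyond counting error, at 0.651 (0.469 to 0.906) and 0.621 (0.477 to 0.818) of it. The summed macrophage markers in NK cells were also highest in the untreated tumour, at 1673, 0 and 106 CPM, with 6, 0 and 4 of the 7 detected. Without cells with markers of a second type the log2 change of Fcer1g in NK cells was -0.46, against -0.66 with them.

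Fcgr3 in NK cells was rare at this depth. It was found with 4, 2 and 12 UMIs in 41, 28 and 128 NK cells, or 172, 51.7 and 98.2 CPM. NK cells also held 1 UMI of Fcgr1 in the untreated tumour and in treated tumour 2, and at most 1 UMI of Fcgr2b and of Fcgr4 in any tumour. In T cells Fcgr3 stood at 78.4, 0 and 18.7 CPM.

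Counting cells with at least 1 UMI gave the same order of cell types for Fcgr3 but depended on depth. In the myeloid class 34.6%, 36.6% and 54.8% of cells had a UMI of Fcgr3 (untreated, treated 1, treated 2), at median depths of 425, 1058.5 and 921.5 UMIs per cell. After each cell was thinned to 300 UMIs, these shares were 25.0%, 13.4% and 26.5%, and 281, 29 and 67 shallower cells were left out. For Fcgr2b the thinned shares were 28.3%, 14.8% and 20.9% (unthinned 37.9%, 36.6% and 47.7%), in the order of its levels. T cells served as the type for comparison, although activated T cells can carry Fcgr2b. Their share was 2.42%, 0% and 0% for Fcgr3 and 4.03%, 0% and 0% for Fcgr2b after thinning, at median depths of 475.5, 778 and 651 before it. In neutrophils the thinned share of Fcgr3 was 36.6%, 34.2% and 38.0% (unthinned 57.1%, 63.7% and 64.7%), and that of Fcer1g was 29.3%, 50.1% and 38.5% (unthinned 34.7%, 78.9% and 57.7%). The share of T cells with Fcer1g was 5.65%, 2.13% and 6.30%. Thinned shares of Fcgr1 in neutrophils were 0%, 0.150% and 0.500%, beside 2.42%, 0% and 0.787% in T cells, where the 0% comes from 47 cells.

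Fcgr2b in T cells moved with markers of macrophages. Its level was 196, 23.1 and 9.35 CPM, on 15, 1 and 1 UMIs, and the untreated tumour was high. The summed level of the 7 macrophage markers in T cells was 2638, 46.2 and 103 CPM in the same order, with 7, 1 and 4 of the markers detected. Cells with at least 3 UMIs of markers of a second cell type made up 19.3%, 18.8% and 14.8% of T cells. Without them the untreated T cells held 1 UMI of Fcgr2b. The log2 change in T cells was -3.69 ± 1.65 for Fcgr2b and -1.10 ± 0.50 for Fcer1g (adjusted p = 0.357 and 0.373 by edgeR). Fcgr2b passed the filter on low counts through its untreated level alone, so its test drew on the tumour where it was high. Fcgr2b passed with no filter on low counts (adjusted p = 0.00602) and Fcer1g passed without pool 3 (adjusted p = 0.0466). The part of the macrophage markers in these changes was not tested.

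The treatment was compared on UMIs summed per tumour and cell type with edgeR's quasi-likelihood test. Since only 3 tumours were measured, 1 of them untreated, there is little information on the spread between animals. The spread of the treated pair has to stand in for that of the single untreated animal. This leaves 1 residual degree of freedom for each gene, so edgeR draws mostly on a spread pooled over genes. For the median gene the pooled spread weighed 15.5 degrees of freedom in the myeloid class. In neutrophils, T cells and NK cells its weight was infinite. SEs and p-values by edgeR therefore hardly reflect a gene's own spread. In the myeloid class all 5 members were tested and none passed an adjusted p of 0.05, where 0.409% of 7099 genes did (29 genes). In neutrophils 4 members were tested and 0 passed, where 0.442% of 2713 genes did (12 genes, 11 higher and 1 lower, or 5 higher and 7 lower when scaled to library totals alone). In T cells Fcer1g and Fcgr2b were tested and 0 passed (2.04% of 1865 genes did), and in NK cells Fcer1g was tested and did not pass (log2 change -0.66 ± 0.58, adjusted p = 0.729 by edgeR; 1.89% of 794 genes did). With DESeq2 0 members passed as well. At an unadjusted p under 0.05 by edgeR there were 0 members in the myeloid class, in neutrophils and in NK cells, and 2 in T cells. Over all genes tested, 652 of 7099 lay under it in the myeloid class and 295 of 2713 in neutrophils. In T cells it was 209 of 1865 genes and in NK cells 87 of 794. Sums were also simulated with a set spread between tumours. Of genes changed 4-fold, edgeR recovered 25% in the myeloid class, 26% in neutrophils, 24% in NK cells and 60% in T cells. The members' estimates in the myeloid class, neutrophils and NK cells were smaller than 4-fold, so the lack of calls there does not show a lack of change.

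**Figure D2:**
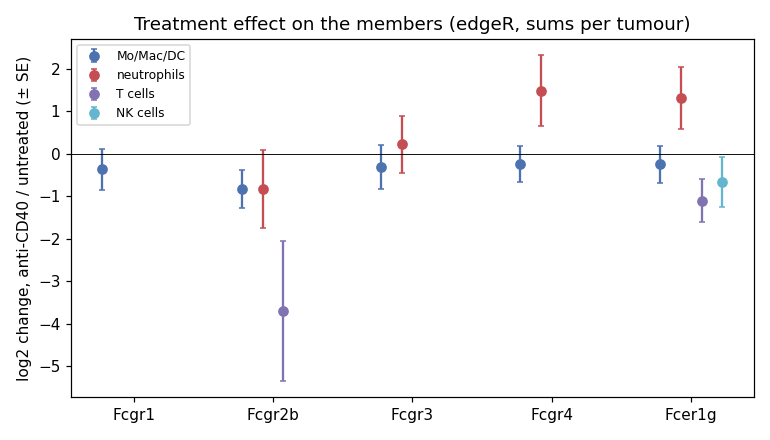
Log2 change of each member after anti-CD40 (vertical axis, treated over untreated, edgeR on sums per tumour, bars are standard errors) in the myeloid class (Mo/Mac/DC), neutrophils, T cells and NK cells, where the member was tested. Fcgr2b lies below 0 in all 3 cell types in which it was tested. Its neutrophil estimate was above 0 without pool 1, within pool 2 and with the subset mix held fixed, which leaves out N4. Fcer1g and Fcgr4 lie above 0 in neutrophils, and none of the points passed the test.

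In the myeloid class Fcgr2b had the largest estimate, a log2 change of -0.83 ± 0.46 (SE, adjusted p = 0.643 by edgeR). The other members were at -0.37 ± 0.49 (Fcgr1), -0.31 ± 0.52 (Fcgr3), -0.24 ± 0.42 (Fcgr4) and -0.24 ± 0.44 (Fcer1g), beside a median of 0.02 over all genes tested. Their spread between the treated tumours was as large as these changes, since treated tumour 1 was lower than treated tumour 2 for all 5. Without treated tumour 1 the estimates of Fcgr1, Fcgr3 and Fcgr4 changed sign, to 0.10, 0.19 and 0.10, and that of Fcgr2b was -0.41. Treated tumour 1 also differed in its cells: the summed macrophage markers of the myeloid class stood at 19592, 4656 and 15328 CPM, the monocyte markers at 2348, 5654 and 1571 and the neutrophil markers at 261, 2192 and 953, with every marker of the 3 lists detected in each tumour. Cells with markers of a second type made up 1.23%, 16.5% and 6.02%. The part of these differences in the members' levels was not tested. Within pools 1 and 2, which hold the untreated tumour and treated tumour 1, the log2 change of Fcgr2b was -1.44 and -1.48, that of Fcgr3 -1.26 and -1.01 and that of Fcgr1 -1.25 and -0.90. These are larger than the estimates over both treated tumours by over 1.5 times, and treated tumour 2 has no untreated cells in its pools, so its pool and its treatment cannot be told apart.

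In neutrophils the log2 changes were 1.49 ± 0.83 for Fcgr4 (adjusted p = 0.493), 1.31 ± 0.72 for Fcer1g (adjusted p = 0.490), 0.22 ± 0.67 for Fcgr3 and -0.84 ± 0.92 for Fcgr2b, all by edgeR. The median over all genes tested was 0.29 with the scaling used and -0.28 when counts were scaled to library totals alone. Relative to either median Fcgr4 and Fcer1g were higher and Fcgr2b was lower. Fcgr3 changed sign with the scaling, to -0.37. The untreated sum holds 49 cells and 23468 UMIs, which limits all of these values, and the summed neutrophil markers in it (35751 CPM) were lower than in the treated tumours (100626 and 64557), a difference whose part was not tested. Without the libraries of pool 1 the untreated sum of Fcgr2b is 0 and its estimate is 7.01, so the direction for Fcgr2b rests on that pool. The difference between the effect in neutrophils and in the myeloid class was largest for Fcgr1 at 6.72 ± 5.64, where the untreated neutrophils held 0 UMIs, and was 2.52 ± 0.91 for Fcgr4, 2.31 ± 0.78 for Fcer1g, 1.40 ± 0.75 for Fcgr3 and 0.89 ± 0.98 for Fcgr2b, beside a median of 1.83 over all genes. With counts scaled to library totals alone the median was 0.73 and Fcgr2b changed sign, to -0.44. No member passed (adjusted p = 0.551 for Fcer1g by edgeR), where 0.0779% of 7700 genes did.

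Neutrophil subsets differed in which parts of the receptor complex they held. The annotated subsets are clusters of these cells, so the values are a description with no test. Fcgr3 was higher in N3 and N5 than in N1a, N1b and N2. In treated tumour 1 it stood at 802, 1082 and 1063 CPM in N1a, N1b and N2, and at 2603 and 2579 in N3 and N5. In treated tumour 2 the corresponding levels were 1364, 966 and 970, then 3057 and 1743. The level in N3 and N5 together was 2.61 (2.30 to 2.96) and 2.29 (1.76 to 3.01) times that in N1a, N1b and N2 in the 2 treated tumours. In the untreated tumour, which held no N1a cells, the ratio was 1.41 (0.749 to 2.76), which includes 1 and rests on 31 and 16 UMIs.

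Fcer1g ran the other way. It stood at 2413, 2875 and 3056 CPM in N1a, N1b and N2 of treated tumour 1, and at 2453 and 1235 in N3 and N5. In treated tumour 2 it stood at 2361, 2958 and 2910, then 1378 and 959. The ratio of N3 and N5 to the other 3 subsets was 0.696 (0.618 to 0.782) and 0.430 (0.340 to 0.543) in the treated tumours. In the untreated tumour, which held no N1a cells, it was 0.557 (0.249 to 1.22), and that interval includes 1. It rests on 13 and 17 UMIs, and 8 of the 17 came from 4 N1b cells. Untreated N3 was not below N2, at 1304 and 1215 CPM. N5 was the lowest subset for Fcer1g in both treated tumours, and N3 was not below N1a in treated tumour 1. N3 and N5 cells were also shallower, with medians of 772 and 765 UMIs in treated tumour 1 against 964.5, 1112.5 and 1048. After thinning to 300 UMIs, 51.7% and 55.7% of N3 and N5 cells of treated tumour 1 had a UMI of Fcgr3, against 18.7%, 25.7% and 29.8% of N1a, N1b and N2 cells. For Fcer1g the thinned shares were 45.8% and 26.1% against 44.7%, 61.8% and 58.6%.

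**Figure D3:**
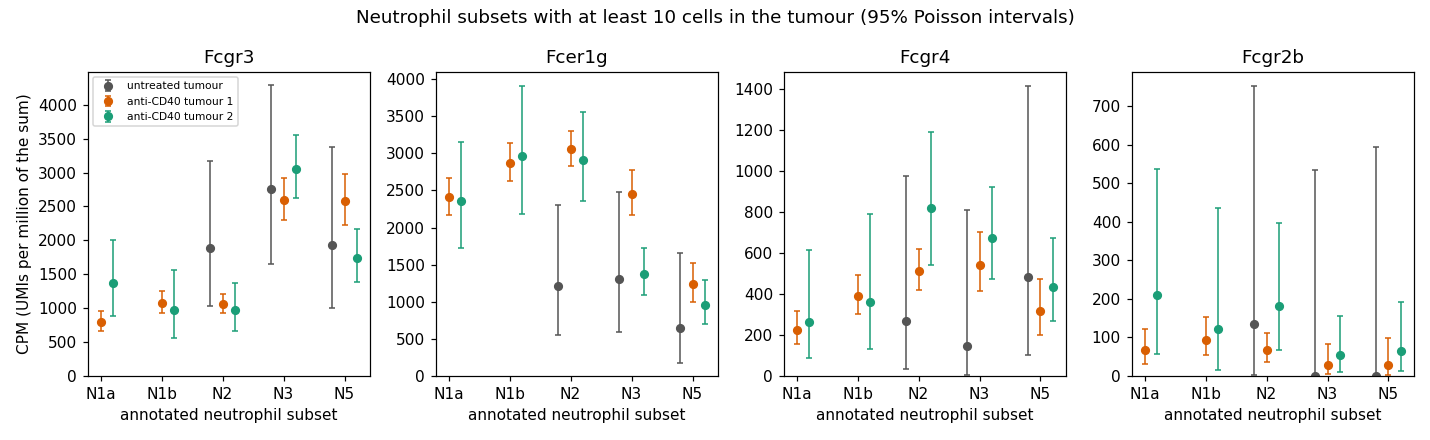
Levels of Fcgr3, Fcer1g, Fcgr4 and Fcgr2b (vertical axis, CPM) by annotated neutrophil subset, with 1 point for each tumour where the subset held at least 10 cells and 95% Poisson intervals. Fcgr3 is 2603 to 3057 in N3 of the treated tumours against 802 to 1364 in N1a, while Fcer1g is lowest in N5.

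Fcgr2b, already low in neutrophils, was lower still in N3 and N5, at 0.370 (0.114 to 0.937) and 0.335 (0.103 to 0.964) of the level in N1a, N1b and N2 in the treated tumours, on 5 and 6 UMIs. The ratio for Fcgr4 was 1.15 (0.880 to 1.5) and 1.02 (0.667 to 1.58), and both intervals include 1. The subsets were present in different proportions in the 3 tumours. With the subset mix of the untreated tumour applied to all tumours (N1b, N2, N3 and N5), Fcgr3 stood at 2097, 2008 and 1866 CPM, and treated tumour 1 was no longer the lowest. N1a, with 128 cells in treated tumour 1, is left out by that measure, and untreated N1b rests on 4 cells. The part of the mix in the change for Fcgr3 was not tested. Fcer1g stood at 1288, 2306 and 1844 by that measure and Fcgr4 at 271, 453 and 619, in the same order as before. Fcgr2b stood at 40.2, 44.9 and 101 by that measure, and the log2 change turned from -0.84 to 0.74. The part of the mix in this turn was not tested. The measure leaves out N4, whose 2 untreated cells held 4 of the 5 untreated UMIs of Fcgr2b. The untreated value then rests on 1 UMI, in N2, so it sets no order.

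The share of the inhibitory receptor among ligand-binding receptor UMIs (Fcgr1, Fcgr2b, Fcgr3 and Fcgr4) does not depend on the scaling of the libraries. In the myeloid class it was 40.2% (95% Clopper-Pearson interval 37.9 to 42.6, 691 of 1719 UMIs) in the untreated tumour, 33.3% (30.1 to 36.6, 279 of 839) in treated tumour 1 and 31.3% (29.9 to 32.8, 1229 of 3923) in treated tumour 2. Both treated intervals lie below the untreated one, which covers counting error only: with 1 untreated tumour a difference between animals was not tested. By library the share ran from 37.9% to 41.7% in the untreated tumour, from 28.4% to 39.2% in treated tumour 1 and from 17.0% to 35.2% in treated tumour 2. Of the 8 treated libraries, 1 reached into the untreated range. In the libraries of pool 1 alone it was 40.1% in the untreated tumour against 35.5% in treated tumour 1, and in those of pool 2 it was 40.4% against 31.2%. In neutrophils the share was 8.20%, 3.38% and 4.01%. The untreated value is 5 of 61 UMIs (2.72 to 18.1), and was 13.2% within pool 1 and 0% within pool 2, so it sets no order.

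**Figure D4:**
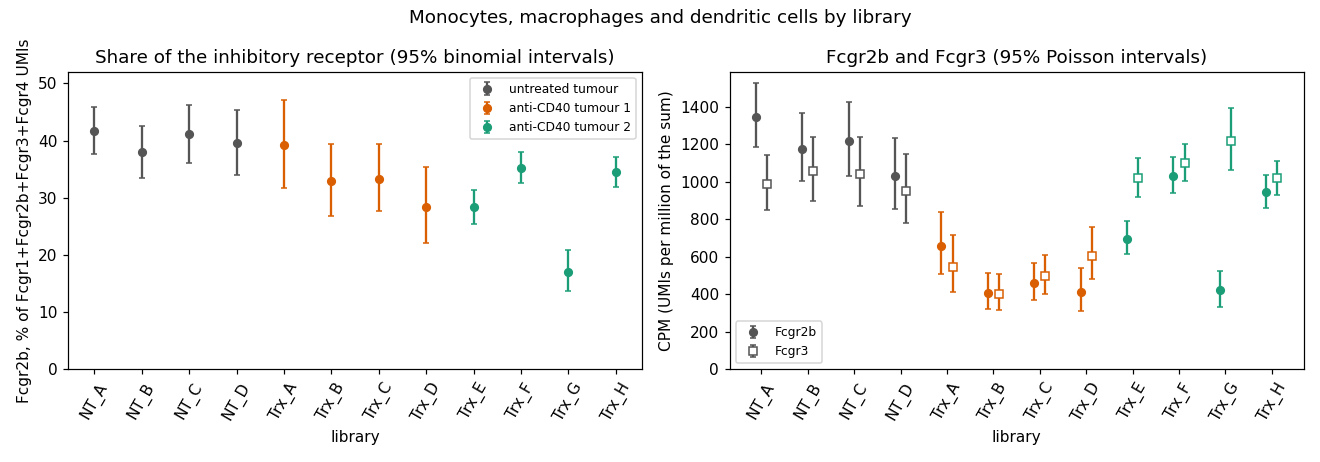
Left, Fcgr2b as a percentage of the UMIs of Fcgr1, Fcgr2b, Fcgr3 and Fcgr4 in the myeloid class of each library, with 95% binomial intervals; right, levels of Fcgr2b (filled circles) and Fcgr3 (open squares) in CPM with 95% Poisson intervals. The untreated libraries lie between 37.9% and 41.7%, and library Trx_G of treated tumour 2 lies lowest at 17.0%.

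Treated tumour 2 was not uniform for Fcgr2b. Its libraries E, F, G and H held 698, 1033, 421 and 947 CPM in the myeloid class, so the pair of pool 3 (E and G) lay below the pair of pool 4 (F and H). Fcgr3 in the same libraries was even, at 1021, 1100, 1219 and 1018. Library G was also the shallowest, with a median of 589 UMIs per cell against 1075 to 1291. Its Fcgr2b count was 76, against 152 expected from the gene's total in the tumour and the library's share of all UMIs. That total includes library G. By the size of the departure it ranked 17 among 1179 genes. In library F the departure was upward (448 against 366 UMIs) and ranked 5. The cause was not tested. Without library G the share of Fcgr2b in treated tumour 2 was 33.2%, still below the untreated share.

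The myeloid class was clustered without the members or the pathway genes to see where the receptors sat, and 13 clusters were found. Clusters are named from markers where at least 3 fell among the leading genes, and otherwise by number, and differences between clusters carry no test. Cluster 7, mature dendritic cell-like (Ccr7, Fscn1, Ccl22 and Cacnb3 among its leading genes), nearly lacked the receptors in all 3 tumours. Its Fcer1g level was 258, 158 and 138 CPM, Fcgr3 was found with 0, 0 and 1 UMIs and Fcgr4 with 0 in each tumour. Cluster 12, nonclassical monocyte-like (Ace, Treml4 and Spn), combined the highest Fcer1g level of any cluster shown for treated tumour 1 (4093 CPM, 22 cells) with low levels of Fcgr1, Fcgr2b and Fcgr3 (39.7, 79.5 and 119 CPM, on 1, 2 and 3 UMIs). Fcgr4 was not low there, at 238 CPM on 6 UMIs (87.5 to 519) beside 196 in the whole class of that tumour.

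Cluster 8, monocyte-like with neutrophil markers among its leading genes (Ly6c2, Chil3 and Plac8 beside S100a8 and S100a9), came almost wholly from treated tumour 1, with 125 of its 136 cells. It held 187 CPM of Fcgr1, 164 of Fcgr2b, 253 of Fcgr3 and 152 of Fcgr4, each below the level of the whole class in that tumour, and 1936 of Fcer1g, close to it. These cells were deep, with a median of 2172 UMIs. Clusters 2 and 5, mostly from treated tumours, differed in Fcgr3: 1222 and 1500 CPM in cluster 2 of the 2 treated tumours (leading genes Ifitm1, Vegfa and Thbs1) against 581 and 400 in cluster 5 (Gdf15, Nr1h3 and Lpl). For Fcer1g cluster 5 was the higher, at 2906 and 3017 against 2120 and 2199.

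**Figure D5:**
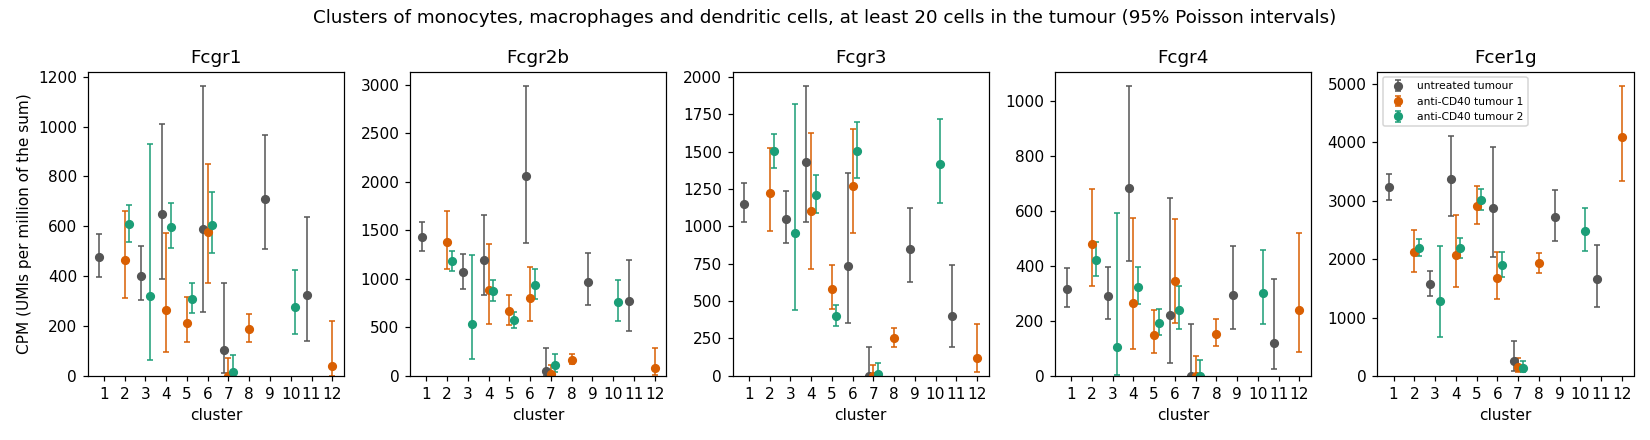
Levels of the 5 genes (vertical axis, CPM) in clusters of the myeloid class (horizontal axis), with 1 point for each tumour that held at least 20 cells of the cluster and 95% Poisson intervals. Cluster 7 lies near 0 for all 5 genes, and cluster 8 of treated tumour 1 is low for the ligand-binding receptors but not for Fcer1g.

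Only clusters 4, 6 and 7 held at least 20 cells of every tumour. In cluster 4, macrophage-like (C1qa, C1qb, C1qc, Apoe and Ms4a7; 47, 29 and 325 cells), Fcgr2b stood at 1193, 880 and 879 CPM. In cluster 6, led by Hspa1b and Mmp12 (29, 48 and 167 cells), it stood at 2063, 807 and 937. In both clusters the untreated tumour had the highest Fcgr2b level, and the intervals of the untreated tumour (831 to 1660 in cluster 4 and 1371 to 2982 in cluster 6) excluded the treated values in cluster 6 only. Fcgr3 did not share an order between them: 1432, 1100 and 1210 in cluster 4 and 737, 1268 and 1501 in cluster 6. The share of Fcgr2b among ligand-binding UMIs was 30.2%, 35.1% and 29.2% in cluster 4 and 57.1%, 26.9% and 28.5% in cluster 6. In the macrophage-like cluster the 95% intervals of all 3 shares overlapped, unlike the treated and untreated intervals of the whole class. In cluster 6 they did not overlap: 42.2 to 71.2 in the untreated tumour against 19.5 to 35.4 and 24.8 to 32.5.

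Among the other Fc and immunoglobulin receptors, Fcgrt, which encodes the neonatal Fc receptor that recycles immunoglobulin G, fell in the myeloid class. It stood at 105, 13.4 and 23.4 CPM on 60, 8 and 34 UMIs, and both treated tumours were low. The log2 change was -2.37 ± 0.45 (adjusted p = 0.0263 by edgeR). The median over all genes tested was 0.02. Here and for the lists below, a gene is called measured where it passed the filter on low counts and was tested. Fcgrt was the only one of the 3 measured genes of that 14-gene list to pass the threshold. The call for Fcgrt was lost with DESeq2 (adjusted p = 0.887) and without pool 1, 2 or 3 (0.0688, 0.233 and 0.221), after thinning (0.0907) and without the shallowest 10% of cells (0.0977), with no change of direction. Fcrls, a receptor-like gene of the same family, was at 177, 0 and 13.1 CPM (101, 0 and 19 UMIs, adjusted p = 0.365 by edgeR). It passed the filter through its untreated level alone. Trim21, a cytosolic antibody receptor, was at 21.1, 13.4 and 17.2. In neutrophils 0 of the 14 genes passed the filter on low counts, so none was tested there.

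Other receptors that signal through the Fc receptor gamma chain lay on the other side of 0. Of 8 such genes 4 were measured in the myeloid class, all 4 were higher in both treated tumours and 0 passed by edgeR (4 at an unadjusted p under 0.05, 1 by DESeq2), with a median log2 change of 1.56. Over all genes in this class, 652 of 7099 had an unadjusted p under 0.05 by edgeR and 12 passed by DESeq2. How many of all genes were higher in both treated tumours was not counted. Clec4d, which encodes a C-type lectin receptor, stood at 105, 383 and 876 CPM (log2 change 2.64 ± 0.66, adjusted p = 0.262 by edgeR; 0.0290 by DESeq2). Clec4d passed in 6 of the 12 alternatives that had a test, with adjusted p from 1.28e-05 by edgeR without library G to 0.527 without pool 2. Clec4e (Mincle) stood at 118, 306 and 372, Pira2 at 42.1, 116 and 126 and Clec4n (dectin-2) at 221, 408 and 687. The untreated tumour was the lowest for each of them. Clec4e passed without library G (adjusted p = 0.0333 by edgeR) and Pira2 passed after thinning (0.0320). Neutrophil markers in the myeloid class were also lowest in the untreated tumour (261, 2192 and 953 CPM), and untreated neutrophils held 2599 CPM of Clec4d and 1619 of Clec4e. Without cluster 10 of the myeloid class, which is led by neutrophil genes and has 60 of its 66 cells from treated tumour 2, the log2 change was 2.66 for Clec4d and 1.56 for Clec4e. Without cells with markers of a second type it was 2.78 and 1.52. In neutrophils the same 4 genes had a median of 0.84 beside 0.29 over all genes, 1 (Clec4e) had a higher level in both treated tumours and 0 passed (0 at an unadjusted p under 0.05 by edgeR, 0 by DESeq2). There Clec4n had the lower values after treatment, 1108, 268 and 435 CPM (log2 change -1.08 ± 0.66).

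In the adaptors and the signalling genes 0 calls were made with the settings used. Of the ITAM adaptors other than Fcer1g, Tyrobp stood at 1460, 1183 and 1430 CPM in the myeloid class and 2514, 2361 and 2063 in neutrophils, and 0 of 2 and 0 of 1 measured genes passed (0 at an unadjusted p under 0.05 by edgeR in either, 0 by DESeq2). Of 24 activating signalling genes 22 were measured in the myeloid class and 0 passed by edgeR (3 at an unadjusted p under 0.05, 0 by DESeq2, median 0.09). Over all genes in this class, 652 of 7099 lay under that unadjusted p. The smallest p-values of the list belonged to Blnk, an adaptor (50.9, 5.04 and 14.4 CPM, log2 change -2.14 ± 0.58, adjusted p = 0.225 by edgeR), Pik3ap1 (330, 134 and 158) and Malt1 (186, 104 and 92.8), each lower in both treated tumours. Blnk passed the filter on low counts through its untreated level alone, so its test drew on the tumour where it was high. Its call was made in 3 alternatives, by edgeR with scaling to library totals (adjusted p = 0.0247), with no filter on low counts (0.0130) and without library G (0.0175), and over all alternatives its adjusted p ran up to 1.00 with DESeq2. In neutrophils 19 of the list were measured and 0 passed (1 at an unadjusted p under 0.05 by edgeR), with a median of 1.06 beside 0.29. Over all genes in neutrophils, 295 of 2713 lay under that unadjusted p. Fgr, a Src-family kinase, stood in neutrophils at 256, 676 and 336, Gab2 at 42.6, 94.0 and 220, and Pik3cd at 0 UMIs in the untreated tumour against 110 and 10 UMIs. Gab2 and Pik3cd passed the filter on low counts through their treated levels alone, so their tests drew on the tumours where they were high.

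Of 19 inhibitory genes 18 were measured in the myeloid class and 14 in neutrophils, and 0 passed in either by edgeR (1 at an unadjusted p under 0.05 in each, 0 by DESeq2, medians 0.14 and 0.94). Over all genes, 652 of 7099 and 295 of 2713 lay under that unadjusted p. The inhibitory genes with the smallest p were Pirb, Cd300a and Dok2 in the myeloid class and Clec4a2, Pirb and Ptpn6 in neutrophils. In neutrophils Clec4a2 passed the filter on low counts through its treated levels alone. Pirb, an inhibitory receptor for MHC class I, stood at 249, 386 and 368 CPM in the myeloid class and 256, 706 and 301 in neutrophils. Inpp5d, the phosphatase recruited by the Fcgr2b receptor, stood at 272, 168 and 200 in the myeloid class and 639, 194 and 267 in neutrophils, with the untreated tumour highest in both and no call.

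Of 18 known regulators of the balance of Fc receptors 15 were measured in the myeloid class and 12 in neutrophils, and 0 passed by edgeR (2 and 1 at an unadjusted p under 0.05, 0 by DESeq2, medians -0.16 and 0.09). Over all genes, 652 of 7099 and 295 of 2713 lay under that unadjusted p. Irf8, a transcription factor of myeloid cells, stood at 695, 421 and 321 CPM in the myeloid class, Tgfb1 at 368, 242 and 161 and C5ar1, the receptor for complement C5a, at 114, 235 and 173. In neutrophils C5ar1 stood at 128, 553 and 446 (log2 change 2.53 ± 0.95, adjusted p = 0.333 by edgeR), on 3 untreated UMIs. In T cells Il10, an anti-inflammatory cytokine, rose and was the 1 of 6 measured regulators that passed the threshold (log2 change 1.87 ± 0.47, adjusted p = 0.00467 by edgeR). That call was lost with DESeq2 (0.998), with no filter on low counts (0.0529), after thinning (0.492) and without pool 2 or 3 (0.554 and 0.0649).

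The genes most like each member across 18 sums (a tumour and cell type, neutrophils split by subset, at least 20 cells each) were taken from 3068 genes by Pearson's r of log2(CPM + 10). These sums share tumours and libraries and differ in depth, so r is a description. Among the genes most like Fcgr1 were Pf4 (r = 0.92), Plekho1, Zmynd15 and Ccl7. Fcgr2b was most like Ctsh (0.92), Grn, Ctss, Csf1r and 5031439G07Rik. Fcgr3 was most like Emilin2 (0.92), Cd300lf, Hk3, Sdcbp and Zeb2, and Fcgr4 like Il1b (0.97), Csf2rb, Cd14, Ifitm3 and Igsf6. Fcer1g was most like the adaptor gene Tyrobp (0.94), followed by Ptpre, Pxn, Napsa and Fgr. Among the members r was highest for Fcgr3 with Fcgr4 (0.89) and Fcgr1 with Fcgr2b (0.76), and Fcer1g reached 0.69 with Fcgr3 and 0.20 with Fcgr1 and with Fcgr2b.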

How the data were processed

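The authors deposited raw counts: whole numbers of UMIs for each gene in each cell. The submitters' processing notes name bcl2fastq, STAR and the build GRCm38; versions, counter, strand use, cell filters and doublet treatment: not given in the sources used here. Cell types, neutrophil subsets, libraries, pools and animals came from the authors' deposited annotation. All deposited cells were kept and doublets were not called; cells with at least 3 UMIs of a second type's markers were left out as an alternative. The members and gene lists were chosen with earlier results of these data known. Genes named from the lists are those that passed the threshold or, in neutrophils and the myeloid class, the 3 with the smallest p in a list; Inpp5d, and in the myeloid class Clec4n, Fcrls and Trim21, were named after their values were seen.

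Sums of UMIs over the cells of a type in each tumour were tested with edgeR 4.0.16 in R 4.3.3 (robust quasi-likelihood test after filterByExpr, with TMM scaling and Benjamini-Hochberg adjustment over all genes tested, threshold 0.05), and with DESeq2 1.42.0 as an alternative. The joint fit of neutrophils and the myeloid class had the tumour as a block. The scripts were tested on simulated data with 100 genes changed 4-fold and 100 changed 8-fold in each cell type. Of the latter, edgeR recovered 79% in the myeloid class, 65% in neutrophils, 85% in NK cells and 92% in T cells. Intervals are 95% and exact (Poisson, conditional binomial or Clopper-Pearson), and they cover counting error only. Clustering used igraph 0.11.9 (1500 variable genes, 20 components, 15 neighbours, resolution 1). Motifs were searched in RefSeq upstream stretches. In the list of genes most like a member, 1 gene is not reported here.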

Additional observations from a re-analysis of the deposited data

How the results depend on the processing

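No member passed the threshold in 107 tests of members in the myeloid class and in neutrophils under alternatives (lowest adjusted p = 0.412 by edgeR or DESeq2), so the alternatives bear on sizes and directions. Counts of genes past the threshold moved widely. In the myeloid class 29 genes became 89 with scaling to library totals, 12 with DESeq2, 141 with no filter on low counts, 1, 14 and 10 without pools 2, 3 and 4, 54 without cells with a second type's markers, 8 without the shallowest cells, 56 after thinning and 133 without library G, an alternative chosen after seeing the data. In neutrophils 12 became 7 with no filter, 3, 23, 7 and 20 without pools 1 to 4, 5 without second-type cells, 7 after thinning and 2 without N1a and N1b. In T cells 38 became 3 with DESeq2, 19 without pool 2, 23 without second-type cells and 18 after thinning. In NK cells 15 became 1 with DESeq2, 8 with no filter, 2, 1 and 6 without pools 1, 2 and 4, and 1 after thinning.

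For the members in the myeloid class, leaving out 1 treated tumour gave log2 changes from -1.11 to 0.10 for Fcgr1, -1.46 to -0.41 for Fcgr2b, -1.10 to 0.19 for Fcgr3 and -0.71 to 0.10 for Fcgr4, the lower value always without treated tumour 2. Within pools 1 and 2 they were -1.25 and -0.90 for Fcgr1, -1.44 and -1.48 for Fcgr2b, -1.26 and -1.01 for Fcgr3, and -0.81 in pool 1 for Fcgr4. Thinning turned Fcgr1 to 0.074 and Fcgr4 to 0.10. In neutrophils Fcgr2b was 7.01 without pool 1, -1.92 within pool 1 and 6.59 within pool 2, where the untreated sum is 0. It was 0.74 with the untreated mix of subsets held fixed, also chosen after seeing the data. That measure leaves out N4, and with it 4 of the 5 untreated UMIs of Fcgr2b. Fcgr3 turned to -0.37 with scaling to library totals, -0.12 without pool 4, -0.31 within pool 1, -0.16 without treated tumour 2 and -0.12 with the mix held fixed. Signs also changed for Fcer1g in T cells (0.18 after thinning), Tyrobp in neutrophils (-0.18 with library totals, -0.045 after thinning, -0.083 without treated tumour 1) and in the myeloid class (0.083 without treated tumour 1), Spi1 in neutrophils (-0.049 without treated tumour 1) and Fcgr2b in the joint fit (-0.44 with library totals). The cause was not tested. The share of Fcgr2b moved to 33.2% without library G in treated tumour 2 and to 0% within pool 2 in untreated neutrophils (23 UMIs). Fcgr2b and Fcer1g in the myeloid class and Fcgr4 and Fcer1g in neutrophils kept their direction in every alternative run. The untreated mix of clusters held fixed was not run, since the largest untreated clusters held at most 23 cells of a treated tumour. No paired analysis was possible because the untreated group is 1 tumour, so the groups share fewer than 2 numbers. Leaving out 1 treated tumour leaves 1 tumour against 1, so those values have no test.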

Other observations

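Cell types with few cells were left out of the comparisons. B cells, whose main Fc gamma receptor is the one encoded by Fcgr2b, numbered 20 in the untreated tumour, 2 in treated tumour 1 and 5 in treated tumour 2. Fcgr2b was found there with 3, 0 and 0 UMIs, Fcgr3 with 3, 0 and 0, and Fcer1g with 6, 0 and 0. Basophils, which use the Fc receptor gamma chain in their receptor for immunoglobulin E, numbered 2 in the untreated tumour, both with a UMI of Fcer1g (3 UMIs in all) and with 0 UMIs of the other members. Plasmacytoid dendritic cells held 1 UMI of Fcer1g in 2 cells of treated tumour 2.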
